A study of Homo sapiens with 6 samples.

Results

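The genes described here are 10 members of the BCL2 family that do not belong to the usual list of p53 targets, measured in HCT116, an established human colon cancer cell line. They are the pro-survival genes BCL2, BCL2L1 and MCL1, the pore-forming BAK1, the BH3-only genes BCL2L11, BID, BAD and BIK, and the relatives BNIP3 and BNIP3L. They were taken by name: every probe set that the platform annotation gives to exactly 1 gene, that gene being among these 10. All 10 genes were on the array, with 24 of its 22215 probe sets, out of 11963 genes that had at least 1 such probe set. Cells that stably carried an NFX1-91 shRNA were compared with cells that carried an shRNA against β-galactosidase, 3 arrays each, both delivered in the lentiviral vector FUGW. NFX1 is a zinc finger transcription factor, and its NFX1-91 splice form is known as a repressor of promoters. The labels do not state whether a group's arrays hold separate cultures or infections. The p-values therefore weigh a difference only against the spread among these arrays, and that spread may be technical.

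Proteins of the BCL2 family decide whether the outer membrane of the mitochondrion stays intact. BAX and BAK1 form the pores through which cytochrome c leaves, the pro-survival proteins hold them in check, and BH3-only proteins release or activate them. BNIP3 and BNIP3L carry a BH3-like stretch, but are best known as receptors that mark mitochondria for autophagy, and as genes switched on by hypoxia-inducible factors (HIF). In colon epithelium and its tumours BCL2L1 and MCL1 are well-known survival factors. The arrays measure RNA only, so the phosphorylation of BAD, the cleavage of BID and the fast turnover of MCL1 protein were not read.

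Values are signals scaled to a mean of 500 on each array. Folds are log2 differences of signal + 16, NFX1-91 shRNA over control, which understate the change of dim probe sets. A probe set was called when limma's Benjamini-Hochberg adjusted p over all 22215 probe sets was under 0.05. Arrays of the same group correlated at a Pearson r of 0.992 to 0.995, and arrays of different groups at 0.983 to 0.985. Of 3 NFX1 probe sets, which may each read several splice forms, the dimmest fell. Its mean went from 19.6 ± 4.17 to 7.42 ± 2.48 (SD, n = 3 per group, limma adjusted p = 0.0137). It read 16.8, 17.7 and 24.4 in control arrays, near the offset of 16. In NFX1-91 shRNA arrays it read 8.87, 8.83 and 4.56, all below the offset, so this reading is near the floor. The other 2 had log2 fold changes of -0.13 and -0.06 and did not pass (limma adjusted p = 0.400 and 0.775). Of 11 colon epithelial markers 9 were brighter than the median gene, with 2 higher and 4 lower. The dimmer 2 were CDX2, with means of 66.9 in control and 72.3 in NFX1-91 shRNA arrays, and VIL1. VIL1 had means of 5.01 and 3.91, below the offset of 16. The 2 that rose were the bright keratins KRT18 (log2 fold change of 0.54) and KRT8 (0.35), and CLDN7 (-1.11), ESRP1 (-0.89), CDH1 (-0.50) and EPCAM (-0.15) fell. The summed signals of the 11 were 26466 to 27098 in control arrays and 29848 to 30083 in NFX1-91 shRNA arrays. The 2 keratins that rose weigh heavily in this sum, so its rise does not describe the other markers. The mean of KRT18 went from 7403 in control to 10739 in NFX1-91 shRNA arrays, and that of KRT8 from 5556 to 7065. Markers of fibroblasts (1 of 7), blood cells (0 of 5) and embryonic kidney (1 of 5) were rarely brighter than the median gene. The 1 of these called was the haemoglobin gene HBB, a dim probe set with a log2 fold change of 0.45, and of these 3 lists the blood cell list had summed signals whose groups did not overlap (89.1 to 107 in control and 112 to 138 in NFX1-91 shRNA arrays). The part of any of this in the values below was not tested.

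Of the 10 genes, BAK1, BNIP3 and BNIP3L rose and BAD fell in cells with the NFX1-91 hairpin, all by less than 1.5-fold, while BCL2, BCL2L1, MCL1, BCL2L11, BID and BIK had no probe set past the threshold. In these bulk RNAs, fewer cells expressing a gene and less of its RNA per cell cannot be told apart. By probe set, 4 of 24 were higher and 1 was lower. These are 20.8% of the probe sets, against 25.7% called over the whole array, where 12.0% were higher and 13.7% lower. The groups did not overlap for 7 of the 24, or 29.2%, against 39.0% of all probe sets. Calls in this family were thus about as frequent as on the array at large. The median log2 fold change of the 24 was 0.12, against 0.01 over all probe sets, and their largest absolute value was 0.44. Among called probe sets of the whole array, the median absolute value was 0.45, and 55.6% moved at least as far as the furthest called probe set here.

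**Figure D1:**
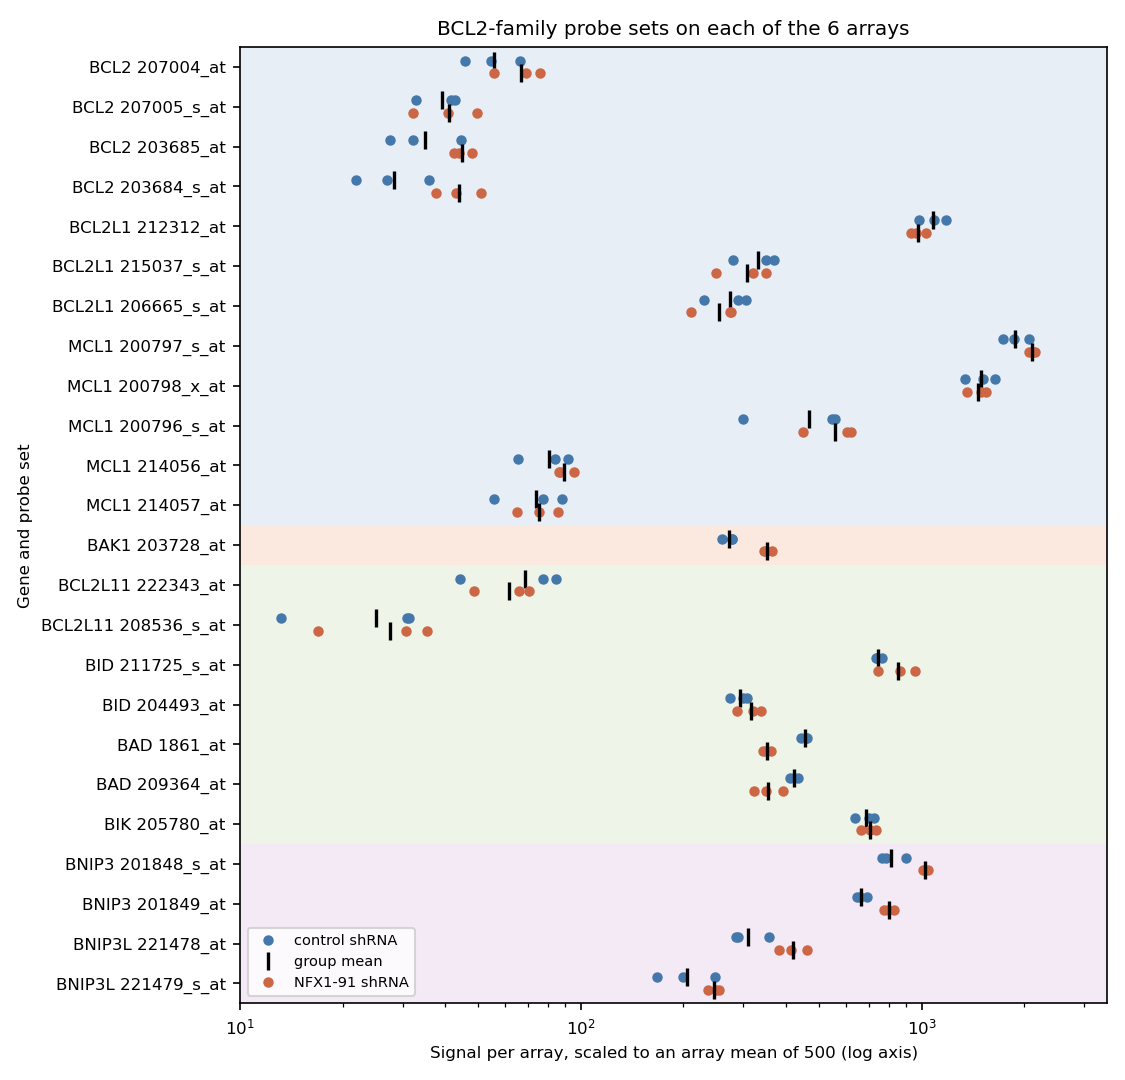
Signal of each of the 24 BCL2-family probe sets on each array, scaled to an array mean of 500, on a log axis; blue points are control shRNA arrays, orange points NFX1-91 shRNA arrays and black ticks the group means, and the shading marks the roles (pro-survival, pore-forming, BH3-only, BNIP3 and BNIP3L). The groups separate for BAK1, both BAD and both BNIP3 probe sets, the brighter BNIP3L probe set and the dimmest BCL2 probe set, 7 of 24.

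The promoters of BNIP3, BAK1 and BAD, all called below, are shown because NFX1-91 and HIF are both known to act through promoter elements, and the groups of arrays differ for these genes. Sequences are the 250 bases before the transcription start in RefSeq on GRCh38.p14, 5′ to 3′ on the gene's strand. Capitals mark the E-box CACGTG, the HIF core ACGTG, which is part of it, and GCGTG, each searched on both strands, so that CACGC is a match to GCGTG. The stretch of BNIP3 is chr10:131981924-131982173, that of BAK1 chr6:33580277-33580526 and that of BAD, at the more upstream of its starts in the table, chr11:64284705-64284954, all on the minus strand.
BNIP3: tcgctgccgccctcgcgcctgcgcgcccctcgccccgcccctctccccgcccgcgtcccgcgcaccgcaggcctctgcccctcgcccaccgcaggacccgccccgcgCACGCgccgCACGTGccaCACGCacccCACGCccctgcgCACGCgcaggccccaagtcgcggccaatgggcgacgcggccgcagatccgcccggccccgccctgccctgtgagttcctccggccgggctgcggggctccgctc
BAK1: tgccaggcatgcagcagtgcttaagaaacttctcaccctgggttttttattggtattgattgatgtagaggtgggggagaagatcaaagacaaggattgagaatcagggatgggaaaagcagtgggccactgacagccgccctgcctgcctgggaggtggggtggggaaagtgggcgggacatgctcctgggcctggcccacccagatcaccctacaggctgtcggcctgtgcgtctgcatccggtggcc
BAD: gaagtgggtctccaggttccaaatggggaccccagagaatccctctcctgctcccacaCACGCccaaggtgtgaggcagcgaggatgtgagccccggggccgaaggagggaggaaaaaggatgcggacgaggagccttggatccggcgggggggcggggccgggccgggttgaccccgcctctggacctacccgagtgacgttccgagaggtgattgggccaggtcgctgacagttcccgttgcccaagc
The BNIP3 stretch held 1 CACGTG, which starts 134 bases before the transcription start, and 4 matches to GCGTG around it. The BAK1 stretch held 0 of these motifs and the BAD stretch 1 GCGTG. The search covered 13 stretches of 7 member genes, some of them overlapping starts of the same gene, and MCL1, BIK and BNIP3L were not searched. CACGTG was found in 3 of the 13, the BNIP3 stretch and 2 of BID, and in 6.34% of all 35116 stretches of that length in the table. The 2 BID stretches overlap and hold the same site, so by gene CACGTG was found in 2 of 7. ACGTG was found in the same 3 and in 18.5% of all stretches. GCGTG was found in 7 of the 13, from 5 of the 7 genes, and in 32.2% of all stretches. Here too overlapping stretches of BAD and of BID count 1 site more than once. The printed stretches differ in base composition, with 81.6% G or C for BNIP3, 58.0% for BAK1 and 66.4% for BAD. Matches to such motifs depend on that composition, and the shares over all stretches were not adjusted for it. A match is a description of these letters and shows no binding. No element bound by NFX1-91 itself was among the motifs searched, so the search does not bear on its binding.

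BAK1, which opens pores in the outer mitochondrial membrane, rose. Its probe set 203728_at read 278, 259 and 277 in control arrays and 345, 349.6 and 363 in NFX1-91 shRNA arrays. Every NFX1-91 shRNA array lay above every control array, with means of 271 ± 10.5 and 352 ± 9.53 (SD, n = 3 per group). The log2 fold change was 0.36 (SE 0.0667, limma adjusted p = 0.00419), a ratio of means of 1.30. With each array left out in turn it ran from 0.33 to 0.37 and stayed called. BAK1 has 1 probe set, so no second reading of the gene was at hand.

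BAX, the other pore-forming gene and a p53 target, went the opposite way. Its brighter probe set fell from 434 ± 70.2 to 246 ± 5.89 and its dimmer probe set from 304 ± 52.1 to 175 ± 7.52 (SD, n = 3 per group), with log2 fold changes of -0.77 and -0.73 (limma adjusted p = 0.00114 and 0.00231). PMAIP1, which encodes the BH3-only protein NOXA, had 2 probe sets at 0.05 and -0.15, neither past the threshold (limma adjusted p = 0.674 and 0.127). BBC3, which encodes PUMA, was not analysed here.

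Among the BH3-only genes, BAD fell by 1 of its 2 probe sets. BAD binds BCL2 and BCL2L1 when growth factor signals are withdrawn. Probe set 1861_at read 443, 462 and 457 in control arrays and 349.7, 341 and 361 in NFX1-91 shRNA arrays. The means were 454 ± 9.86 and 351 ± 9.91 (SD, n = 3 per group), and the log2 fold change was -0.36 (SE 0.0596, limma adjusted p = 0.00236). The spread within each group was small beside the distance between them.

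The second BAD probe set, 209364_at, read 435, 411 and 421 in control arrays and 322, 349 and 392 in NFX1-91 shRNA arrays. Its groups did not overlap either, but the NFX1-91 shRNA arrays were more spread, and the log2 fold change of -0.25 (SE 0.0796) missed the threshold at a limma adjusted p of 0.0521. It passed in 7 of 19 alternatives, among them an offset of 1 (adjusted p = 0.0481) and leaving out NFX1-91 shRNA replicate 3 (adjusted p = 0.0178), and its adjusted p ran from 0.0161 to 0.160 over all of them. Its 95% confidence interval, -0.43 to -0.06, and that of 1861_at, -0.49 to -0.22, overlapped. The difference between the 2 probe sets was not tested.

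BID, which is cleaved by caspase-8 and carries death receptor signals to the mitochondrion, did not pass. Probe set 211725_s_at read 764, 741 and 736 in control arrays and 743, 864 and 954 in NFX1-91 shRNA arrays. The lowest NFX1-91 shRNA array lay within the control range and the other 2 lay above it. The log2 fold change was 0.18 (95% confidence interval -0.01 to 0.37, limma adjusted p = 0.162), and leaving out NFX1-91 shRNA replicate 1, that low array, gave 0.28 and a call. The dimmer BID probe set, 204493_at, had overlapping groups and a log2 fold change of 0.10 (-0.09 to 0.28).

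BIK, which acts at the endoplasmic reticulum, read 701, 727 and 636 in control arrays and 665, 707 and 737 in NFX1-91 shRNA arrays. The groups overlapped widely, and its log2 fold change of 0.03 had a 95% confidence interval of -0.12 to 0.18 (limma adjusted p = 0.798). BCL2L11 encodes BIM, which binds all the main pro-survival proteins. Its brighter probe set, 222343_at, read 44.1, 84.2 and 77.6 in control arrays and 65.8, 70.4 and 48.5 in NFX1-91 shRNA arrays. Its dimmer one, 208536_s_at, read 13.2, 31.2 and 30.9 and then 30.6, 35.2 and 17.0. In both, control replicate 1 and NFX1-91 shRNA replicate 3 were the lowest of their group, and the groups overlapped. The log2 fold changes were -0.10 (95% confidence interval -0.58 to 0.37) and 0.09 (-0.44 to 0.63), so both intervals are wider than those of the BAD and BIK probe sets.

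**Figure D2:**
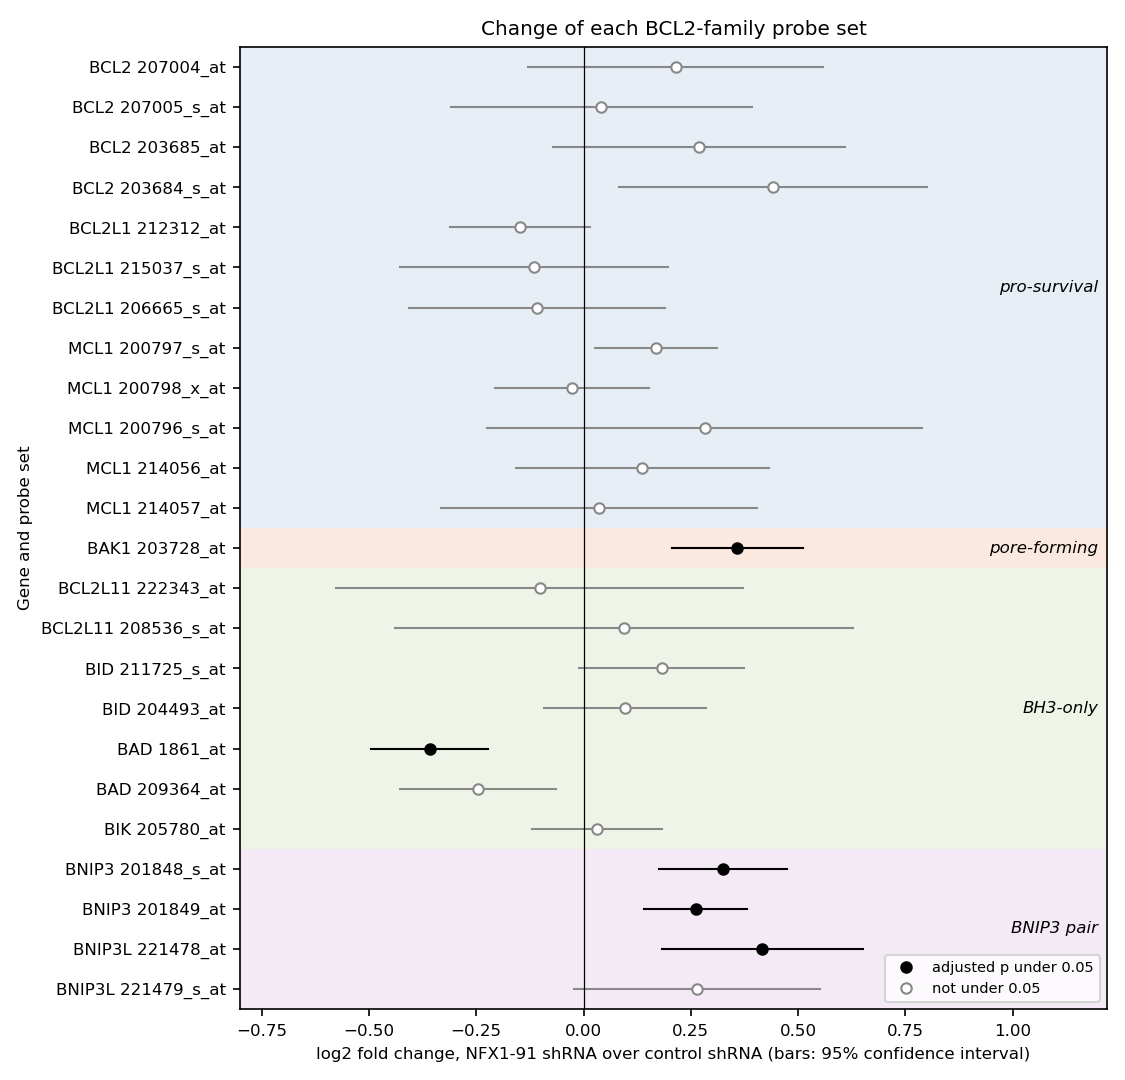
log2 fold change of each BCL2-family probe set, NFX1-91 shRNA over control shRNA, with its 95% confidence interval as a bar; filled points had a limma adjusted p under 0.05 and shading marks the roles. The 5 filled points are BAK1, 1 BAD probe set, both BNIP3 probe sets and 1 BNIP3L probe set, and the pro-survival block has none.

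None of the 12 probe sets of the 3 pro-survival genes passed by limma, and 2 of them had an unadjusted p under 0.05. BCL2, the founding member of the family, was dim in these cells, with signals of 21.9 to 75.6 over its 4 probe sets, not far above the offset of 16. Probe set 203684_s_at read 26.9, 21.9 and 35.7 in control arrays and 37.5, 43.0 and 51.0 in NFX1-91 shRNA arrays. The groups did not overlap, though the highest control array and the lowest NFX1-91 shRNA array nearly met. The log2 fold change was 0.44 (SE 0.157, limma adjusted p = 0.0744), and without control replicate 3 it was 0.56 and passed. Over all of its alternatives the adjusted p ran from 0.0258 to 0.232. The other 3 BCL2 probe sets had overlapping groups and log2 fold changes of 0.04 to 0.27.

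BCL2L1 encodes the survival protein BCL-XL and, by splicing, the pro-death form BCL-XS. Its brightest probe set, 212312_at, read 1089, 984 and 1176 in control arrays and 961, 1033 and 928 in NFX1-91 shRNA arrays. The log2 fold change was -0.15 (95% confidence interval -0.31 to 0.01, limma adjusted p = 0.181). Probe sets 215037_s_at and 206665_s_at gave -0.12 and -0.11, and both turned slightly positive, to 0.02 and 0.01, without NFX1-91 shRNA replicate 3. The splice forms read by each probe set were not tested.

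MCL1, a short-lived survival protein, was read by 5 probe sets. The brightest, 200797_s_at, read 2063, 1727 and 1861 in control arrays and 2062, 2126 and 2155 in NFX1-91 shRNA arrays. Control replicate 1 reached the level of the NFX1-91 shRNA arrays, and the log2 fold change of 0.17 (SE 0.0622) had a limma adjusted p of 0.0834. Without that array it was 0.24 and passed, and over all of its alternatives the adjusted p ran from 0.00617 to 0.260.

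Probe set 200798_x_at, of the class that may cross-hybridise, gave -0.03 (95% confidence interval -0.21 to 0.15), and its sign turned with median centring. Probe set 200796_s_at was the most spread of the bright ones, at 300.0, 547 and 558 in control arrays and 619.7, 606 and 449 in NFX1-91 shRNA arrays. The estimate of 0.28 on the log2 scale had an interval of -0.22 to 0.79, and without control replicate 1 it was 4.45e-05. The 2 dim MCL1 probe sets gave 0.14 and 0.04. Control replicate 1 was thus the highest control array for some MCL1 probe sets and the lowest for others.

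BNIP3 rose by both of its probe sets. Probe set 201848_s_at read 763, 786 and 898 in control arrays and 1021, 1006 and 1044 in NFX1-91 shRNA arrays, with means of 816 ± 72.2 and 1024 ± 19.2 (SD, n = 3 per group). Its log2 fold change was 0.33 (SE 0.0655, limma adjusted p = 0.00627). Probe set 201849_at read 647, 659.7 and 689 and then 795, 777 and 829, which is 0.26 on the log2 scale (SE 0.0528, limma adjusted p = 0.00642). For both, every NFX1-91 shRNA array lay above every control array. Leaving out each array gave 0.28 to 0.40 and 0.24 to 0.29, and both probe sets stayed called.

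BNIP3L, also known as NIX, the receptor that clears mitochondria from maturing red cells, rose by 1 of its 2 probe sets. Probe set 221478_at read 286, 289 and 356 in control arrays and 380.4, 414 and 462 in NFX1-91 shRNA arrays. The groups did not overlap, and the log2 fold change of 0.42 (SE 0.103, limma adjusted p = 0.0170) was the largest among the called probe sets of the family. The call was lost without control replicate 2 (0.37, adjusted p = 0.0769), without NFX1-91 shRNA replicate 2 (0.42, adjusted p = 0.0671) and without NFX1-91 shRNA replicate 3 (0.35, adjusted p = 0.0661). Probe set 221479_s_at read 167, 199.7 and 247 in control arrays and 236, 255 and 249 in NFX1-91 shRNA arrays. There control replicate 3 lay among the NFX1-91 shRNA arrays, and the log2 fold change was 0.26 (SE 0.126, limma adjusted p = 0.176); without that array it was 0.40 and passed (adjusted p = 0.0317).

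**Figure D3:**
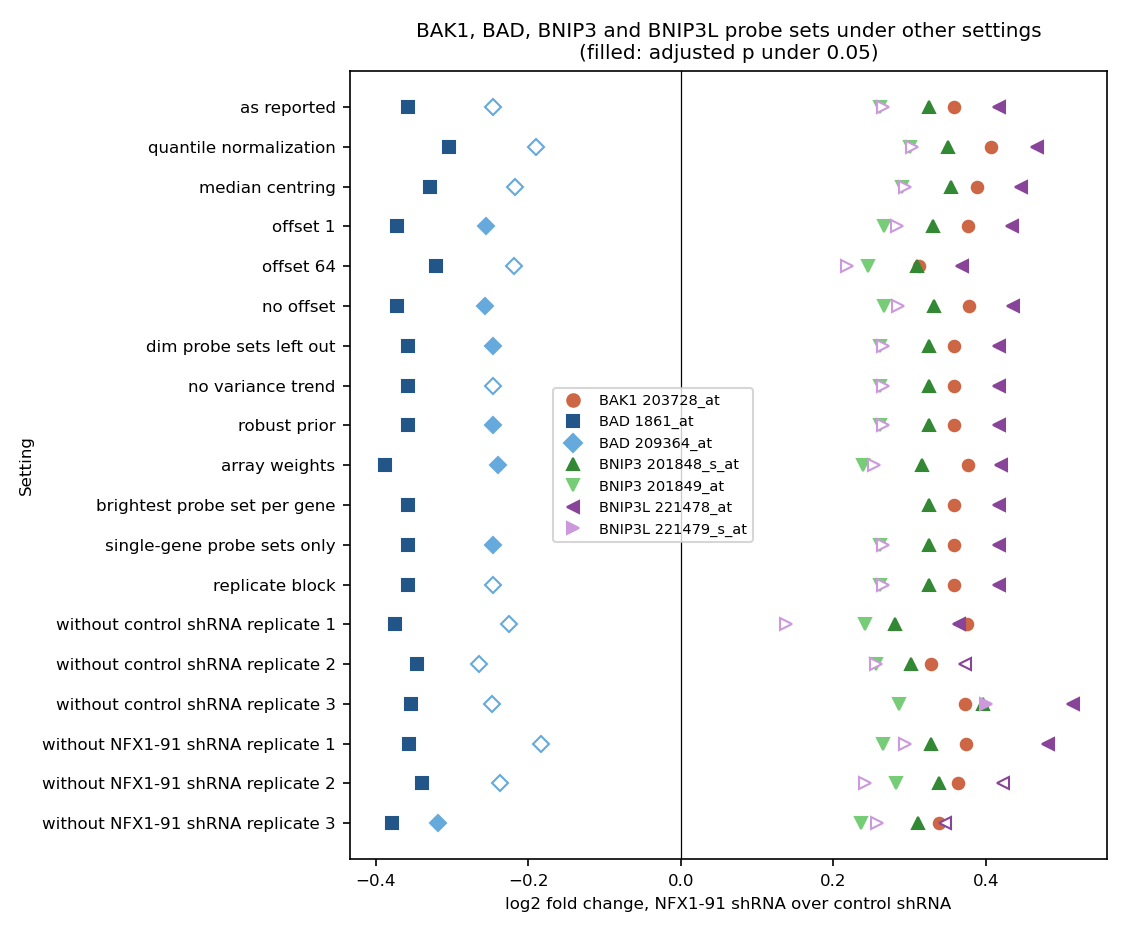
log2 fold changes of the BAK1, BAD, BNIP3 and BNIP3L probe sets as reported and under each other setting that changes the fit, with filled symbols where the adjusted p was under 0.05. No symbol crosses 0, BAK1, BAD 1861_at and both BNIP3 probe sets are filled in every setting drawn, and BNIP3L 221478_at opens in 3 settings that leave out an array.

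The other genes of the pathway were read by each gene's brightest probe set. Over all 11963 genes read that way 13.4% were higher and 16.6% lower, and the median log2 fold change was 0.00364. These shares are a low background for bright lists. With dim probe sets left out, 2843 of 13329 probe sets were higher and 3230 lower, against 2656 and 3047 of all 22215. Brighter than the median gene were 7 of 13 other BCL2-family genes and 10 of 11 downstream genes. So were 17 of 19 regulators, 13 of 15 mitophagy genes and 13 of 15 HIF genes. Of 13 other BCL2-family genes 1 was higher and 3 were lower, with a median of -0.13. BCL2L2, which encodes the survival protein BCL-W, read 272, 274 and 280.3 in control arrays and 118, 125 and 134 in NFX1-91 shRNA arrays. That change, -1.04 on the log2 scale (SE 0.0815, limma adjusted p = 4.62e-05), was the largest among these 13 genes and the 10 above. BAX and the mitophagy receptor BCL2L13 (-0.30) fell too. The riser was BNIP1 (0.33), which acts in vesicle fusion at the endoplasmic reticulum; 2 of its 3 probe sets were called.

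Downstream of the mitochondrion, 4 of 11 genes were higher and 3 lower, with a median of 0.09. The outer membrane channels VDAC2 (0.20) and VDAC3 (0.17) rose. HTRA2 (-0.40) and ENDOG (-0.40), a protease and a nuclease that leave the mitochondrion in apoptosis, fell. The other called genes were APAF1 (0.36) and VDAC1 (0.17), which rose, and CYCS (-0.12), which encodes cytochrome c and fell. Of 19 genes known to regulate the 10 members, 7 were higher and 2 lower, with a median of 0.10. FBXW7, a ubiquitin ligase subunit that targets MCL1, rose by 0.64 on the log2 scale. The 14-3-3 protein SFN rose by 0.32, and BAG1, a partner of BCL2, and the phosphatase PPM1D rose by 0.30 and 0.33. The 2 that fell were YWHAZ (-0.42), another 14-3-3 protein, and BTRC (-0.55), a ubiquitin ligase subunit.

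In the mitophagy list 6 of 15 genes were higher and 4 lower, with a median of 0.10. GABARAPL2 (0.39), of the ATG8 family that coats the autophagosome, rose, while its relative GABARAP (-0.61), the cargo receptor NBR1 (-0.67) and the starting kinase ULK1 (-0.85) fell. The other risers of this list were OPTN (0.38), MAP1LC3B (0.33), SQSTM1 (0.23), CALCOCO2 (0.23) and PHB2 (0.12). BCL2L13, given above, was the remaining gene that fell. HIF genes and targets, to which BNIP3 and BNIP3L are usually counted, had 7 higher and 2 lower of 15, with a median of 0.21. HIF1A itself rose by 0.32, from a signal of 2800.4 ± 150.3 to 3503 ± 100.2 (SD, n = 3 per group; limma adjusted p = 0.00104), and the collagen hydroxylase P4HA2 rose by 0.44. EGLN3 (0.49, a dim probe set), BHLHE40 (0.45), SLC2A1 (0.30), EPAS1 (0.22) and NDRG1 (0.21) rose too. DDIT4 (-0.59) and VEGFA (-0.36) fell. The called genes of this list thus went both ways, 7 up and 2 down. The values given for single genes in these 3 paragraphs are log2 fold changes with a limma adjusted p under 0.05, and counts and medians describe the lists without a test. Quantile normalization or median centring turned the sign of none of the called genes of these lists, and 4 and 2 of them lost their call. Other genes gained one. With quantile normalization 9 HIF genes were higher in place of 7, and regulators stayed at 7 higher although HUWE1 and YWHAQ lost their calls. With median centring 8 regulators were higher in place of 7.

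**Figure D4:**
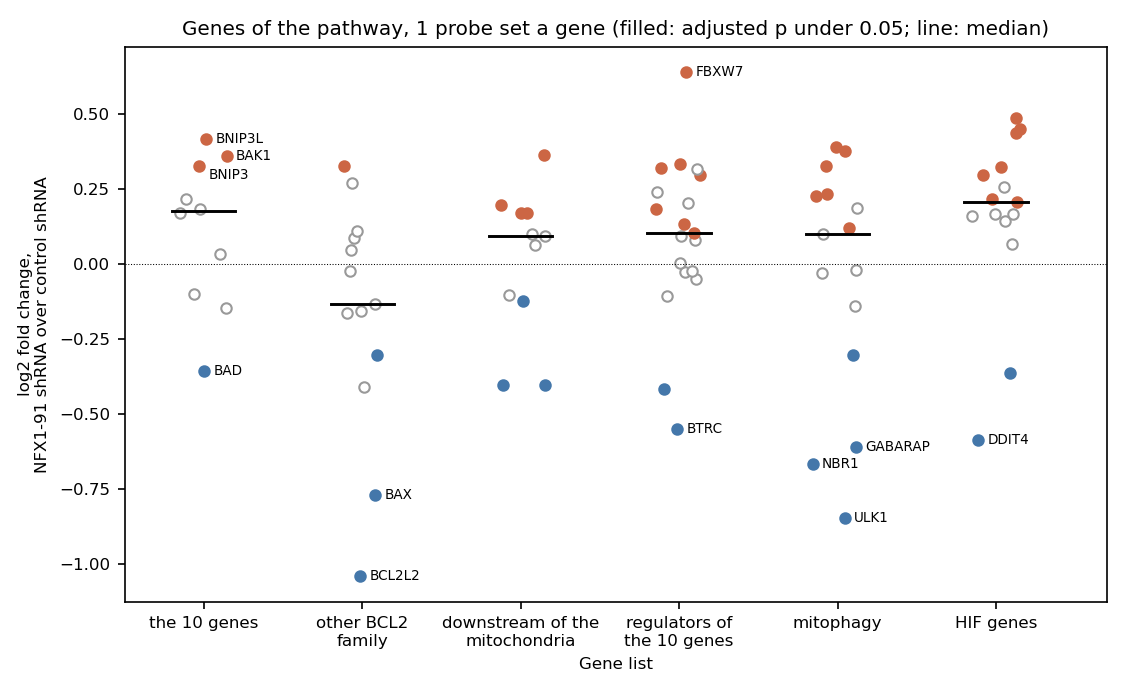
log2 fold change, NFX1-91 shRNA over control shRNA, of each gene's brightest probe set in the 10 BCL2-family genes and 5 other lists of the pathway; filled orange and blue points were called higher and lower at a limma adjusted p under 0.05, open points were not called, and lines are medians. BCL2L2 (-1.04) and BAX (-0.77) lie below every one of the 10 genes.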

How the data were processed

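Per the labels, biotinylated cRNA was made from total RNA of HCT116 cells and hybridised to 6 Affymetrix arrays. The deposited intensity values are linear, and each column of the 22215 probe sets sums to 1. The authors' probe summarisation was not given in the sources used here. Each array was multiplied to a mean of 500, and 16 was added before log2; 24.1% to 25.9% of an array's values, and 1 of 144 values of the 24 probe sets, lay below 16. Symbols came from the platform annotation (19064 probe sets with 1 gene, 1043 with several, 2108 with none listed).

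All probe sets were fitted in R 4.3.3 with limma 3.58.1 (an unpaired, two-sided moderated test, trended prior variance, Benjamini-Hochberg over all probe sets, threshold 0.05). The number of arrays limits the precision. The steps were tested on simulated data in which 200 of 22215 probe sets changed. There 13.0% of 1.25-fold, 36.2% of 1.5-fold and 95.4% of 4-fold changes were recovered. Far fewer probe sets changed there than were called here, so these shares do not carry over directly, but small changes can go uncalled. The members and lists were chosen with earlier results of these data known. All members were named, BAX, PMAIP1 and BBC3 always, and of each other list at most the 4 called genes with the smallest adjusted p. Beyond these, all called genes of the downstream, mitophagy and HIF lists were named, as were the called regulators that fell and all called cell type markers. A comparison of probe sets within a gene was planned where a called probe set had a partner of opposite sign, which no member had. Alternatives were other scalings, offsets, filters, variance models, array weights, features, thresholds, a replicate block and leaving out each array. Figures used Python 3.11.15 and matplotlib 3.10.9.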

Additional observations from a re-analysis of the deposited data

How the results depend on the processing

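Of 462 values of single probe sets under the alternatives, 422 kept direction and call, 9 lost the call, 15 gained it and 16 changed sign. BAK1, BAD 1861_at and both BNIP3 probe sets kept call and direction in all of theirs except a 1.5-fold minimum. The count of lower probe sets was 2 in place of 1 with an offset of 1, without an offset, with dim probe sets left out, with a robust prior, with array weights and over single-gene probe sets. In all of these the added probe set was BAD 209364_at. The count of higher probe sets was 7 in place of 4 with array weights. Both counts were 0 with a 1.5-fold minimum, since no called change was that large. Leaving out each array gave 3 to 6 higher and 1 to 2 lower. Sign changes fell on probe sets that were not called. MCL1 200798_x_at read 0.0018 with median centring and -0.10 to 0.041 without an array, and MCL1 214057_at read -0.029 with array weights and -0.12 to 0.15 without an array. Leaving out an array gave -0.069 to 0.16 for BCL2 207005_s_at, -0.23 to 0.020 and -0.22 to 0.011 for BCL2L1 215037_s_at and 206665_s_at, -0.33 to 0.038 and -0.14 to 0.28 for BCL2L11 222343_at and 208536_s_at, and -0.023 to 0.071 for BIK. The replicate block gave 4 higher and 1 lower, the same counts as without it, and over all probe sets 2265 higher and 2649 lower. Deviations of same-numbered arrays correlated at -0.058, 0.087 and -0.088. Whether equal numbers mark a shared culture or day is not in the labels, and these correlations cannot decide it. Signals near the offset limit what BCL2 and BCL2L11 can show.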

Other observations

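Some of the members' probe sets were low on the same 2 arrays, and others of the same genes were not. Control replicate 1 and NFX1-91 shRNA replicate 3 were each the lowest of their group for 6 of the 24 probe sets, or 25.0%, against 14.2% of all probe sets. The 6 were both BCL2L11 probe sets, 2 of 3 for BCL2L1 (215037_s_at and 206665_s_at) and 2 of 5 for MCL1 (200796_s_at and 200798_x_at). The brightest MCL1 probe set, 200797_s_at, was highest of its group on both arrays, at 2063 and 2155. None of these 7 probe sets was called, and this pattern was picked out after the values were seen. The deviations of these 2 arrays from their group means correlated at 0.15 across all probe sets, the highest of the 9 pairs of a control and an NFX1-91 shRNA array. Probe sets of an array are not independent, and what the 2 arrays share was not tested.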
